A study of Bos taurus with 8 samples.

Results

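The comparison described here was set up as the response of crossbred cattle to heat. Blood mononuclear cells taken after 7 days of heat were compared with cells taken before it, on day 0. The series has no unheated group at day 7, so heat cannot be told apart from time, sampling day or pool. Below, before and after heat name the days only. The members of the comparison are the 4 gene tables of the crossbred animals among the 8 of the series, chosen by the breed and day in their labels. The labels give RNA pooled from 5 crossbred animals for each day, a total RNA library, and 2 files a day that are called replicates. They do not say which breeds were crossed, how hot it was, or whether the same 5 animals gave both samples, and the cells were not sorted further. The other 4 tables are of Tharparkar, an Indian zebu breed, on the same days, also as pools of 5 animals, and entered the filter and the scaling but are otherwise used only to set values side by side.

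Peripheral blood mononuclear cells are the lymphocytes and monocytes of the blood, and are a common readout of heat load in cattle because they can be sampled from living animals. In heated cells, heat shock factors are released from chaperones, bind DNA as trimers and switch on chaperone genes, whose proteins refold damaged proteins. Over days, stress hormones and a changed traffic of white cells through the blood also shape what a blood sample contains. The deposited tables name genes by Ensembl identifier (ID) alone, and 0 of the 24596 IDs could be paired with a gene symbol in the reference at hand. No chaperone, cytokine or cell marker gene could therefore be looked up, the mononuclear label could not be checked against its markers, and the response is described by its size, direction, abundance, gene length and transcript makeup. In a bulk pool, fewer cells of a type and less RNA per cell cannot be told apart.

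The crossbred files held 8593506 and 8549551 expected counts at day 0, and 7956594 and 7902219 at day 7. Expected counts are reads assigned to a gene, with reads that fit several genes split between them. A chi-square per gene between the files of a day, divided by the value that independent reads of 1 library would give, had a median of 0.0916 at day 0 and 0.112 at day 7. The files of a day thus differ by less than sampling noise and were averaged and counted as 1 sample, so that n = 1 on each side. There is no replicate check, no p-value for any gene, and no measure of the spread between animals. The files of a day are given only as a lower limit on technical spread.

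After 7 days of heat the crossbred profile showed many changes, most of them small. Of 11711 genes with enough counts, 877 were higher at day 7 by at least 1 log2 unit, which is 7.49% of the genes measured, and 627 were lower, 5.35%. Together 12.8% of the genes were at or past that size. The middle 50% of all genes lay between -0.36 and 0.41 log2 units, the central 90% between -1.02 and 1.16, and the median was 0.0020. Past 0.5 log2 units, 2485 genes were higher and 2092 lower. At 2 units, 106 were higher and 88 lower, at 3 units 9 and 11, and at 4 units 1 and 2. Large changes were thus few in both directions, and higher genes outnumbered lower ones up to 2 log2 units but not at 3.

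**Figure D1:**
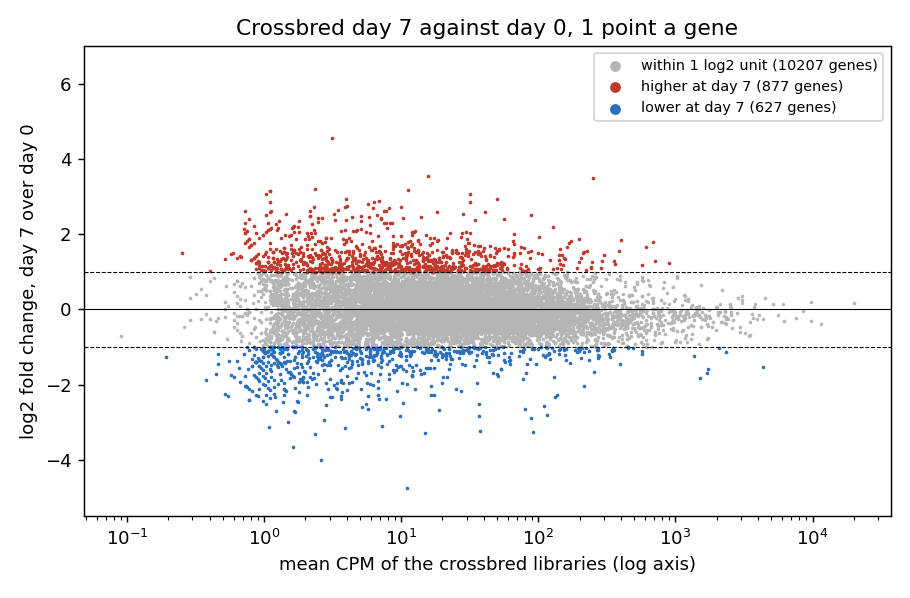
Log2 fold change of day 7 over day 0 in crossbred (vertical) against the mean CPM of the crossbred libraries (horizontal, log axis), 1 point for each of 11711 genes; dashed lines mark 1 log2 unit. The 877 higher and 627 lower genes lie mostly at low and middle abundance, and few points pass 3 units in either direction.

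The counting interval of a gene, an exact 95% interval of the ratio of its counts that covers counting error only, lay above 0 for 832 genes among those that were higher, 7.1% of all measured, and below 0 for 581 among those that were lower, 4.96%. Both files of one day lay above both files of the other in 874 of the 877 genes that were higher and in 624 of the 627 that were lower. That separation was no mark of the changed genes, since it held for 10890 of all 11711 genes, or 93.0%. On either side of the 1 log2 unit limit values ran on without a gap. Among well counted genes whose files did not overlap, the 2 just inside on the higher side had 1.0019 and 1.0080, with 97 and 456.5 counts at day 0, and the 2 just outside had 0.9989 and 0.9966. On the lower side the 2 just inside had -1.0008 and -1.0048, and the 2 just outside had -0.9963 and -0.9937.

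How the changed genes divided into higher and lower varied with scaling and unit. After TMM scaling, which brings the bulk of genes to no change, 58.3% of the changed genes were higher. With plain total counts the share was 69.2%. It was 68.1% with the deposited TPM and 70.1% with the deposited FPKM values, which also differ in the pseudocount of 1 and in being scaled per length. Total counts moved the median of all genes from 0.0020 to 0.12. Log2 changes below are after TMM scaling, and shares of counts are of the plain total over the 11711 genes.

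The genes with the largest changes were taken among those with at least 20 CPM (counts scaled to 1000000 per library) on the higher day, a counting interval that excludes 0, files that do not overlap, and whole counts in all 4 crossbred files, which leaves out genes with visibly split reads there. By these criteria 261 genes were higher and 164 lower. The 15 largest rises ran from 2.06 to 3.54 log2 units, and the 15 largest falls from -1.96 to -3.25. The rising genes went from a median of 70 counts at day 0, with a range of 19.5 to 397.5, to a median of 486.5 at day 7. The falling genes went from a median of 546.5 counts, with a range of 178.5 to 2974, to a median of 94. The criterion on the higher day sets a floor under the falls at day 0 and under the rises at day 7, so starting levels cannot be compared between them. Their files of 1 day never differed by more than 1.22-fold in the rises and 1.17-fold in the falls.

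ENSBTAG00000040103, a gene of 1352 bases with 1 listed transcript, had the largest rise among the 261 genes that met these criteria. The day 0 files held 20 and 19 counts, those of day 7 held 266 and 240. Day 7 lay far above day 0 in both files. Per length, its level went from 2.07 to 28.6 TPM. The log2 fold change was 3.54, and counting error alone allows 3.001 to 4.39.

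ENSBTAG00000011600, of 2509 bases, had nearly as large a rise from a higher start. Before heat its files had 348 and 362 counts, after it 4004 and 4030. Its level per length went from 19.2 to 232 TPM, and its log2 fold change of 3.49 had counting limits of 3.34 and 3.66. Of the 2 rising IDs it is the one with the higher level on both days.

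ENSBTAG00000012265, with a transcript length of 8427 bases, had the largest fall among the 164 genes that met the criteria. The day 0 files held 589 and 599 reads of it, those of day 7 only 60 and 61. Per length it was never abundant, at 9.2 TPM before and 1.0 TPM after heat. Its log2 fold change was -3.25, with counting limits of -3.72 and -2.93.

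ENSBTAG00000018785, of 1353 bases, was the next by the same criteria. In 1 Tharparkar day 0 file its count was not whole (496.58), so some of its reads there were split with another gene. Before heat its files had 1347 and 1343 counts, and after heat 178 and 179. Its level went from 143 to 20.2 TPM, the highest starting level of the 4 IDs, and its log2 fold change of -2.90 had counting limits of -3.15 and -2.69. For all 4 IDs the files of a day lay close together and those of the other day lay well apart. The criteria asked for files that do not overlap, and files of a day differ by less than sampling noise. The separation therefore adds no support to these changes.

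**Figure D2:**
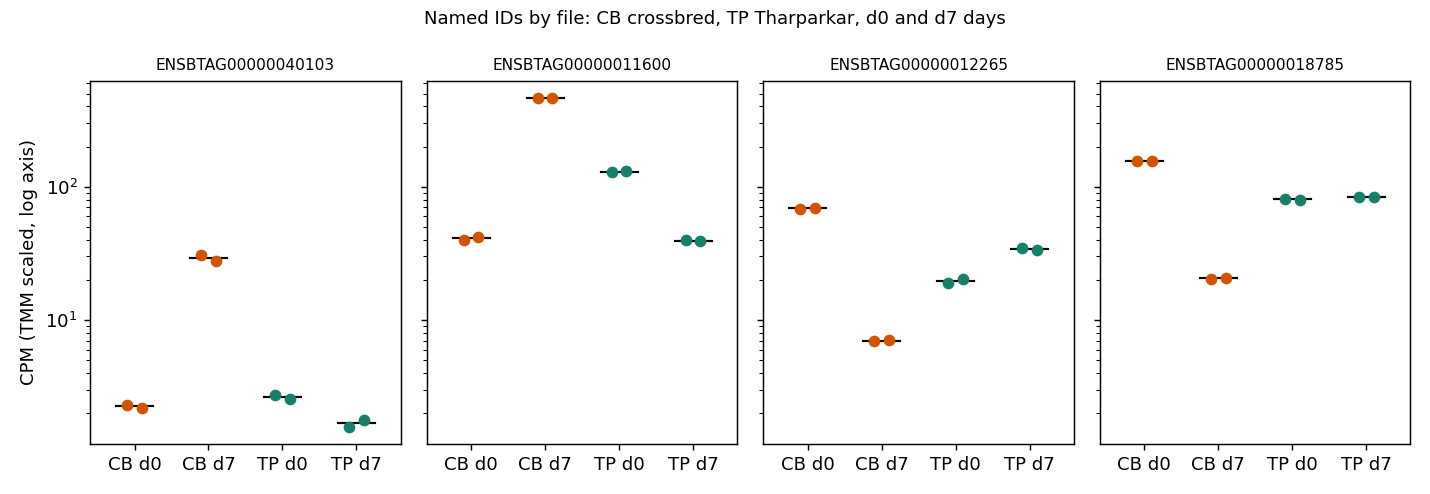
CPM after TMM scaling (log axis) of the 4 named IDs in each of the 8 files; points are files, bars the value of the averaged library. CB is crossbred and TP Tharparkar, d0 and d7 are day 0 and day 7. In crossbred, ENSBTAG00000040103 and ENSBTAG00000011600 rose and ENSBTAG00000012265 and ENSBTAG00000018785 fell, with the files of a day nearly on top of each other.

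Genes past 1 log2 unit were more frequent at low abundance, where counting error is also larger. Genes with a mean of 1 to 5 CPM over the crossbred libraries numbered 2208, of which 14.1% were higher and 11.1% lower past 1 log2 unit. The counting interval excluded 0 for 286 of these 312 higher and 218 of these 245 lower genes. Of 3383 genes at 5 to 20 CPM, 8.75% were higher and 4.67% lower. Of 4239 genes at 20 to 100 CPM, 4.199% were higher and 2.29% lower. In these 3 classes rises outnumbered falls. Above that, the balance turned: at 100 to 1000 CPM 44 of 1532 genes were higher and 57 lower, and at 1000 CPM or more 0 of 139 were higher and 7 lower. In the thinly counted class below 1 CPM, 47 of 210 genes were higher and 63 lower, but the counting interval excluded 0 for only 28 and 44 of them.

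**Figure D3:**
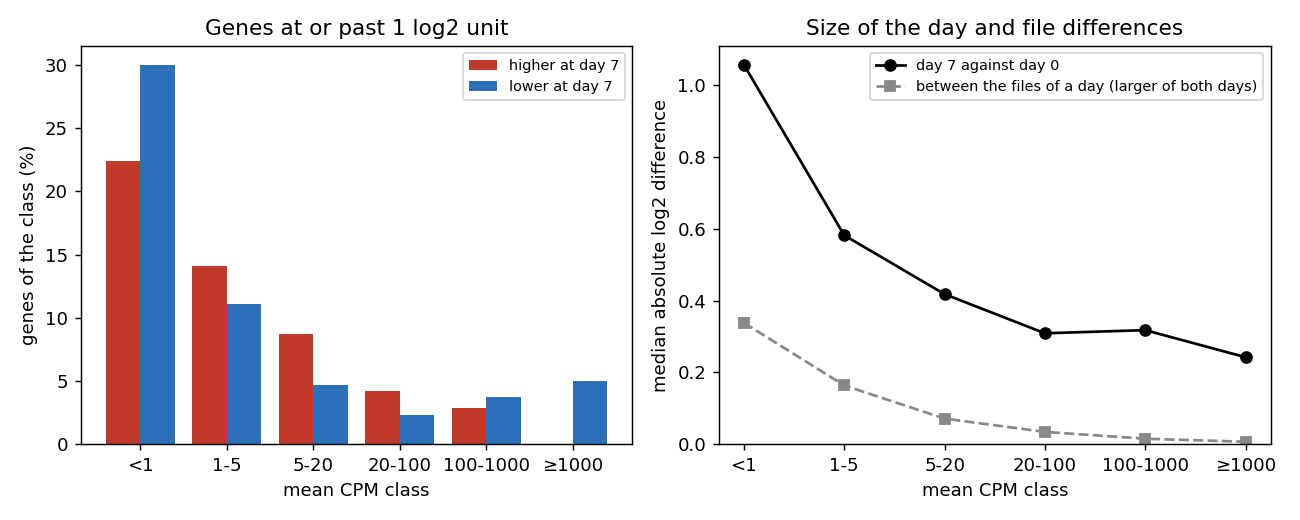
Left, the percentage of genes in each class of mean CPM that were higher (red) or lower (blue) at day 7 by at least 1 log2 unit; right, the median absolute log2 difference between the days (black) and between the files of a day (grey) in the same classes. The share that was higher falls from 14.1% at 1 to 5 CPM to 0 at 1000 CPM or more, the share that was lower falls to 2.29% at 20 to 100 CPM and is 5.04% at 1000 CPM or more, and the day difference lies above the file difference in every class.

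The median absolute change between the days fell from 0.58 log2 units at 1 to 5 CPM to 0.31 at 20 to 100 CPM. It was 0.32 at 100 to 1000 CPM and 0.24 at 1000 CPM or more. The median difference between files of a day was 0.16, 0.034, 0.015 and 0.0069 in the same classes. This file difference was taken on log2 of CPM plus 0.1, as the larger of both days. The days thus lay further apart than their files in each class, although files with common reads understate the technical spread between libraries. Counting error was not taken out of the day differences, and its part in their fall with abundance was not tested.

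The most abundant genes stood somewhat lower after heat as a body. The 139 genes at 1000 CPM or more had a median log2 change of -0.19, with quartiles of -0.39 and -0.0068, and 104 of them were below 0. With total counts in place of TMM the median was -0.070 and 88 were below 0. Their share of all counts went from 36.0% to 34.0%. The 1532 genes at 100 to 1000 CPM had a median of -0.15, and their share went from 39.9% to 39.3%. Genes of lower abundance took up more of the counts: those at 20 to 100 CPM went from 19.7% to 21.6%, those at 5 to 20 CPM from 3.78% to 4.38%, and those at 1 to 5 CPM from 0.583% to 0.661%. Relative to the median of all genes, the most abundant class was at -0.19, and at -0.24 to -0.17 over 14 alternatives. In Tharparkar the same 139 genes had a median change of 0.080, but their share of counts went the same way as in crossbred, from 40.1% to 37.7%. There too the genes at 20 to 100 CPM gained, from 18.3% to 19.2%, as did those at 5 to 20 CPM, from 3.51% to 3.70%, and those at 1 to 5 CPM, from 0.504% to 0.561%. The 1532 genes at 100 to 1000 CPM went the other way from crossbred, from 37.6% to 38.8%. Differences between the breeds were not tested.

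To turn the day 0 profile into the day 7 profile, 12.3% of counts would have to be assigned to another gene. This figure includes counting error. Between the files of a day it was 0.563% at day 0 and 0.643% at day 7, and between the Tharparkar days it was 11.8%. On this scale 6858 genes gained and 4850 lost share. After TMM scaling the split was nearly even, with 5873 genes higher and 5838 lower. The gains were spread more widely than the losses: 295 genes made up 50% of all gain in share, and 141 genes made up 50% of all loss. The gene with the largest single loss went from 55707.5 to 19446 counts, or from 0.650% to 0.245% of the library, and its log2 change after TMM scaling was -1.52. It is therefore one of the few very abundant genes past 1 log2 unit, and in Tharparkar it went the other way by 0.87. The next largest loss, from 1.33% to 1.099%, was in a more abundant gene, with a log2 change of -0.39 after TMM scaling. The largest single gains were of like size and were also in very abundant genes, from 1.90% to 2.31% and from 0.925% to 1.14% of the library, with log2 changes after TMM scaling of 0.17 and 0.19. The 100 most abundant genes of day 0 and of day 7 had 85 genes in common, and of the 115 genes in either list 1 was higher and 7 were lower past 1 log2 unit. The 100 genes that led at day 0 held 31.2% of counts then and 29.1% at day 7.

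Few genes switched between absence and presence. With at most 3 counts on one day taken as not detected, 14 genes that had at least 20 counts at day 0 were not detected at day 7, and 10 of these had whole counts throughout. Their median was 25.8 counts at day 0, and the most was 44.5. In the other direction 4 genes were found, with at most 54 counts at day 7. By this definition, at this depth, only scarce transcripts appeared or were lost.

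Genes whose reads are split with another gene were more often past 1 log2 unit. Counts that are not whole to 0.01 in at least 1 crossbred file mark 1219 genes, of which 122 were higher and 91 lower, the latter 7.47%. Of the 10492 genes with whole counts, 755 (7.20%) were higher and 536 (5.11%) lower. Genes with counts that are not whole made up 6 of the 11 genes that fell by at least 3 log2 units and 2 of the 9 that rose as much. Some reads of such genes were split with other genes, which the tables do not name, so their values are uncertain.

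Genes with longer transcripts were higher at day 7 more often than those with shorter ones. Gene length here is the deposited length, which is that of a gene's transcripts and not its span on the genome. In the shortest 20% of genes, of 143 to 1125 bases, 5.92% were higher and 7.54% lower, and the median change was -0.082. In the longest 20%, from 3130 bases, 8.03% were higher and 4.66% lower, and the median change was 0.051. The fourth of the 5 length groups, from 2229 to 3129 bases, lay beyond the longest, with 8.75% higher, 4.05% lower and a median of 0.068. Among the 5 length groups, only the shortest had more falls than rises. The higher genes had a median length of 2101 bases, the lower ones 1731, and all genes 1919. Spearman's rank correlation between length and log2 change was 0.0883 across the 11711 genes, which share the same 2 libraries and are not independent, and is given as a description.

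The length trend was not the same at all levels of abundance. The rank correlation was 0.130 over the genes at 5 to 20 CPM and 0.131 over those at 20 to 100 CPM, and 0.0597 at 1 to 5 CPM and 0.0802 at 100 to 1000 CPM. Among the 139 genes at 1000 CPM or more it was -0.132. At 5 to 20 CPM the shortest genes had a median change of -0.054 and the longest 0.18. At 100 to 1000 CPM both were below 0, at -0.16 and -0.12. Genes with 1 listed transcript gave 0.0887 over 10576 genes.

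**Figure D4:**
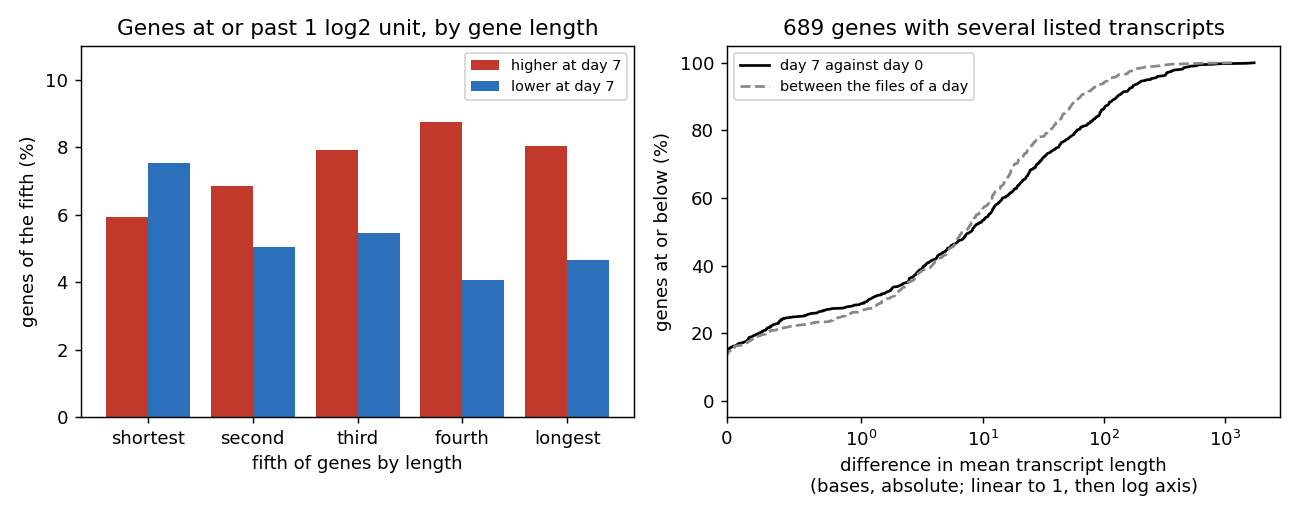
Left, the percentage of genes higher (red) or lower (blue) at day 7 in each of 5 equal groups of genes by length; right, for 689 genes with several listed transcripts, the percentage of genes (vertical) at or below a given difference in mean transcript length (horizontal, bases, linear to 1 and then log) between the days (black) and between the files of a day (grey). Higher genes make up 5.92% of the shortest group, 8.75% of the fourth and 8.03% of the longest, and the black curve lies to the right of the grey one at the larger differences.

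The tables also bear on which transcripts of a gene were present. The length given for a gene is weighted by its transcripts, so for a gene with several transcripts a change in length marks a change in their mix. Several transcripts were listed for 1843 genes, and 689 of these had at least 100 counts on both days. The typical difference was small: the median absolute difference between the days was 8.0 bases, against 6.9 between the files of a day. The files of the days did not overlap in 225 genes that were longer and 152 that were shorter at day 7, and overlapped in 312. The upper tail was wider between days, with a 95th percentile of 235 bases against 107. Without overlap between the files of the days, and by at least 200 bases, 22 genes had a longer and 16 a shorter mean transcript at day 7. The files of a day differed by as much in 11 genes.

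In total counts these 38 genes were like the others with several transcripts: 36 of them, or 94.7%, stayed within 1 log2 unit, against 611 of the other 651, or 93.9%. The longest gain was in a gene of 3658.5 and 3668.42 bases in the day 0 files and 5260.1 and 5051.1 bases at day 7, on 124.5 and 238.5 counts. The largest loss was in a better counted gene, of 4310 and 2713 counts, whose mean transcript went from 6232.08 and 6242.05 bases to 4539.84 and 4468.78. Its total fell by 0.67 on the log2 scale. Of the 38 genes, 28 had at least 100 counts on both days in Tharparkar too, and in 16 of these, or 57.1%, the length moved the opposite way there, against 60.1% of 419 other genes whose length moved in both breeds. Only 14 genes remained when 500 counts a day were asked for, and the estimation error of the lengths themselves is not given in the tables.

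Genes with several transcripts changed in total about as often as the others. Of 1135 such genes, 13.6% were past 1 log2 unit, against 12.8% of 10576 genes with 1 listed transcript.

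Set beside Tharparkar, the genes that changed in crossbred moved the other way more often than not. No library is in both day 7 changes. The 877 genes that were higher in crossbred, with a median of 1.31, had a median of -0.53 in Tharparkar, with quartiles of -0.98 and -0.11. Of them 705, or 80.4%, were below 0 there, against 50.9% of all genes. The 627 lower genes, with a median of -1.30, had a median of 0.44 in Tharparkar, with quartiles of -0.078 and 0.97. Of them 450, or 71.8%, were above 0, against 49.1% of all genes. With 1 pool for each breed and day, this difference was not tested.

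The levels of these genes show where the crossbred libraries lay. For the higher genes the median log2 CPM was 2.09 in crossbred at day 0 and 3.48 at day 7, which the choice of genes fixes. The Tharparkar libraries, which entered the choice only through the filter and the scaling, were at 2.69 at day 0 and 2.30 at day 7. For the lower genes crossbred went from 2.99 to 1.49, and Tharparkar stood at 2.10 at day 0 and 2.54 at day 7. In both sets the Tharparkar medians lay between those of the crossbred days, a position that choosing genes by the crossbred difference favours. By day 7 Tharparkar had moved away from the crossbred day 7 level and towards the crossbred day 0 level. Since each library is 1 pool, breed, day, heat and pool cannot be told apart here.

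**Figure D5:**
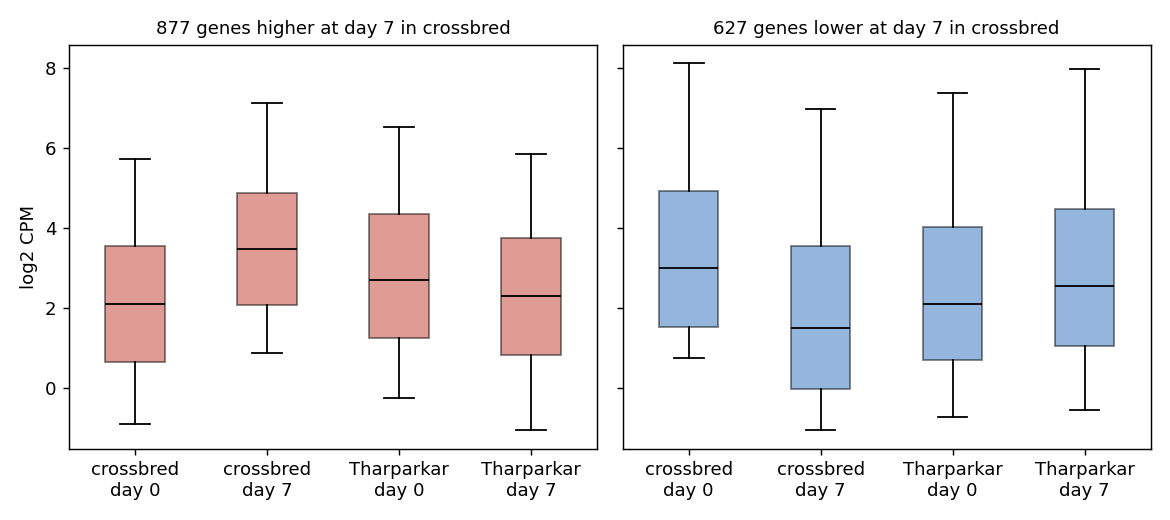
Log2 CPM of the 877 genes higher (left) and 627 genes lower (right) at day 7 in crossbred, in the 4 averaged libraries; boxes give the quartiles and median over genes, whiskers the 5th and 95th percentiles. The Tharparkar medians lie between the crossbred ones, at 2.69 and 2.30 on the left and 2.10 and 2.54 on the right.

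The largest changes can be set beside Tharparkar in the same way. All 15 of the largest crossbred rises were below 0 in Tharparkar, from -2.85 to -0.11 with a median of -1.34, and 8 of them were at or past -1, a size that 4.53% of all genes reached in Tharparkar. Of the 15 largest falls 11 were above 0 in Tharparkar, with a median of 0.46 and a range of -0.95 to 1.32, and 3 were at or past 1, which 3.75% of all genes reached. None of the 30 passed 1 log2 unit in the same direction in both breeds.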

How the data were processed

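Tables of 8 files were used as deposited. Per the submitters' processing notes, Bowtie2 and RSEM were used, with no role or version given, and the genome build, annotation and filters are not given in the sources used here. The authors' files hold expected counts, TPM and FPKM, with gene lengths in bases, per the file headers. Expected counts were averaged over the files of a day, filtered with filterByExpr and scaled with TMM over the 4 averaged libraries (edgeR 4.0.16, R 4.3.3), and turned into log2 CPM with a prior count of 2. A gene counted as changed at 1 log2 unit. No test was made with n = 1. Counting intervals are exact (Clopper-Pearson) on rounded counts. Steps were tried on simulated data with independent counts. The files of a day are not independent, so this does not bear on the tests with files as replicates. Files enter as replicates only in alternatives, with edgeR's quasi-likelihood test or DESeq2 1.42.0. Reads carry no molecular identifiers, so intervals and limits of detection cover counting error only.

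The members, gene lists and rules were chosen with earlier results of these data known. The gene lists, cell marker lists and the symbol-based parts of the naming rule could not be followed without symbols, and no list has a result. The rule asked for the 15 largest rises and falls by the criteria given above. The first 2 of each are named by ID and the rest are summarised. The 5 most abundant genes are not named, and promoters were not analysed here. The abundance, transcript length and Tharparkar summaries were chosen after the data were seen.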

Additional observations from a re-analysis of the deposited data

Results flagged for a closer look

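All 4 named IDs had log2 changes of opposite sign in the breeds, but not every Tharparkar counting interval excluded 0. These differences were not tested. ENSBTAG00000040103 changed by 3.54 log2 units in crossbred and -0.58 in Tharparkar, a difference of 4.12, but Tharparkar had only 16.5 and 8.5 counts and a counting interval of -2.13 to 0.61 that includes 0. ENSBTAG00000011600 changed by 3.49 and -1.71, a difference of 5.20. ENSBTAG00000012265 changed by -3.25 and 0.80, a difference of -4.05. ENSBTAG00000018785 changed by -2.90 and 0.058, a difference of -2.96, and its Tharparkar interval of -0.13 to 0.25 includes 0.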

How the results depend on the processing

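Each group is 1 pool, so no setting measures the spread between animals, and depth limits what can be said of genes under 1 CPM. The 4 IDs kept their direction under 14 of 14 alternatives each, as did the rank correlation with gene length, which without a filter was 0.0554. For the IDs this adds little support, since they were chosen for their large changes. Only whole counts, and totals without the 100 most abundant genes, could not alter their values. A crossbred file left out shares most reads with the file that is kept. A mean CPM of at least 10 left 402 higher and 222 lower genes, 64.4% of them higher. Lower genes were 308 with TPM and 283 with FPKM, and the higher share was 69.2% with total counts, 68.1% with TPM and 70.1% with FPKM. For ENSBTAG00000012265 the change was -2.35 with TPM and -2.29 with FPKM, with a pseudocount of 1. The filter changes which genes are tested, and the cause of the other shifts was not tested. Leaving out each crossbred file in turn gave 872 to 895 higher and 614 to 630 lower genes. Other settings kept the counts of higher and of lower genes within 1.5 times of those reported. These were DESeq2 size factors, no filter, a prior count of 0.5, only crossbred libraries and only whole counts. Totals without the 100 most abundant genes gave the same 877 higher and 627 lower genes. The TMM scaling that follows cancels such a change of totals, so this setting could not move the counts.

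Tests with the files as replicates compare libraries, not conditions. The files of a day share reads and differ by less than sampling noise, so the p-values are too small even for that. The numbers of genes called are therefore given only to show what these tests return. edgeR's quasi-likelihood test called 3894 higher and 3809 lower genes (50.6% higher) without the replicate block at an adjusted p under 0.05, and 3897 and 3813 (50.5%) with the replicate block. DESeq2 called 2687 higher and 2750 lower, 49.4% higher. The labels give replicate numbers but nothing that pairs the files across days.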
